A study of Mus musculus with 12 samples.

Results

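The Notch genes examined here are 2 receptors (Notch1 and Notch2), 4 ligands (Dll1, Dll4, Jag1 and Jag2), the fringe enzyme Lfng, and the nuclear or feedback proteins Hes1, Hes6 and Nrarp. They were taken by name from the deposited expression table (NOTCH1, NOTCH2, DLL1, DLL4, JAG1, JAG2, LFNG, HES1, HES6 and NRARP, as it spells them), and all 10 had a row among its 18090 rows, 1 for each gene symbol. The mutants are labelled villinCre;Shp2fl, which joins a Cre recombinase expressed from the villin promoter, active in the intestinal epithelium, to a floxed Shp2 allele. Shp2 is a tyrosine phosphatase, encoded by Ptpn11, that passes growth factor signals on to RAS. The controls are labelled only as control, with their alleles not given in the sources used here. There were 6 mutant and 6 control mice, all labelled P6 and all of a mixed C57/BL6;129Ola background. The RNA came from an entire piece of proximal small intestine and was read on a 1-colour Illumina array, so the signal of each gene pools epithelium, where the Cre acts, with vessels, stroma, muscle, nerves and blood. In such a sample, fewer cells of a type and less RNA per cell cannot be told apart.

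Notch receptors are cut when a Delta or Jagged ligand on a neighbouring cell pulls on them, and the released intracellular part enters the nucleus and joins the DNA-binding protein RBPJ to switch on genes of the Hes and Hey families. In the intestinal crypt this exchange between neighbours keeps stem and progenitor cells dividing and steers cells toward the absorptive fate. Cells with low Notch activity express Atoh1 and become secretory. The question behind the comparison, as the title and design of the series put it, is how gene expression of the small intestine differs in mice with the targeted Shp2 allele.

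Values below are deposited intensities in arbitrary units, background-subtracted and normalised between arrays, with mean ± SD over 6 mice. Log2 differences are mutant minus control from limma fitted over all 18090 rows, after an offset of 50 that shrinks the differences of dim rows, and adjusted p-values are Benjamini-Hochberg values over all rows with a threshold of 0.05. A value at or under 27.8 is called within the noise limit, since the lowest deposited value was as far below 0. Intensities of different rows come from different probes and are not read as relative amounts of transcript. They were ranked only to pick the brightest rows of a role. They were added only in the sums over cell type markers, in which the brightest rows weigh most.

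Of the 10 Notch rows, 1 passed the threshold, Nrarp, which fell, against 9.19% of all rows in either direction and 4.48% of all rows in the lower direction. A share of 1 in 10 is close to that background. The background counts 6912 rows that were within the noise limit in all 12 mice. With only rows above that limit in at least 6 mice kept, 1 of 6 Notch rows was called, against 1779 of 9930 rows. The median log2 difference, which counts rows within the noise limit, was -0.04 over the 10 rows and -0.01 over all rows. At an unadjusted p under 0.05 there were 5 of 10 rows, 2 with higher means (Hes1 and Hes6) and 3 with lower means (Nrarp, Notch1 and Jag1), against 21.8% of all rows. None of the 10 had groups free of overlap, against 4.69% of all rows. The rows Notch1, Dll1, Hes1, Hes6 and Nrarp were above the noise limit in all 12 mice and Jag2 in 11. Dll4 and Jag1 were above it in 3 mice each, and Notch2 and Lfng in none.

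**Figure D1:**
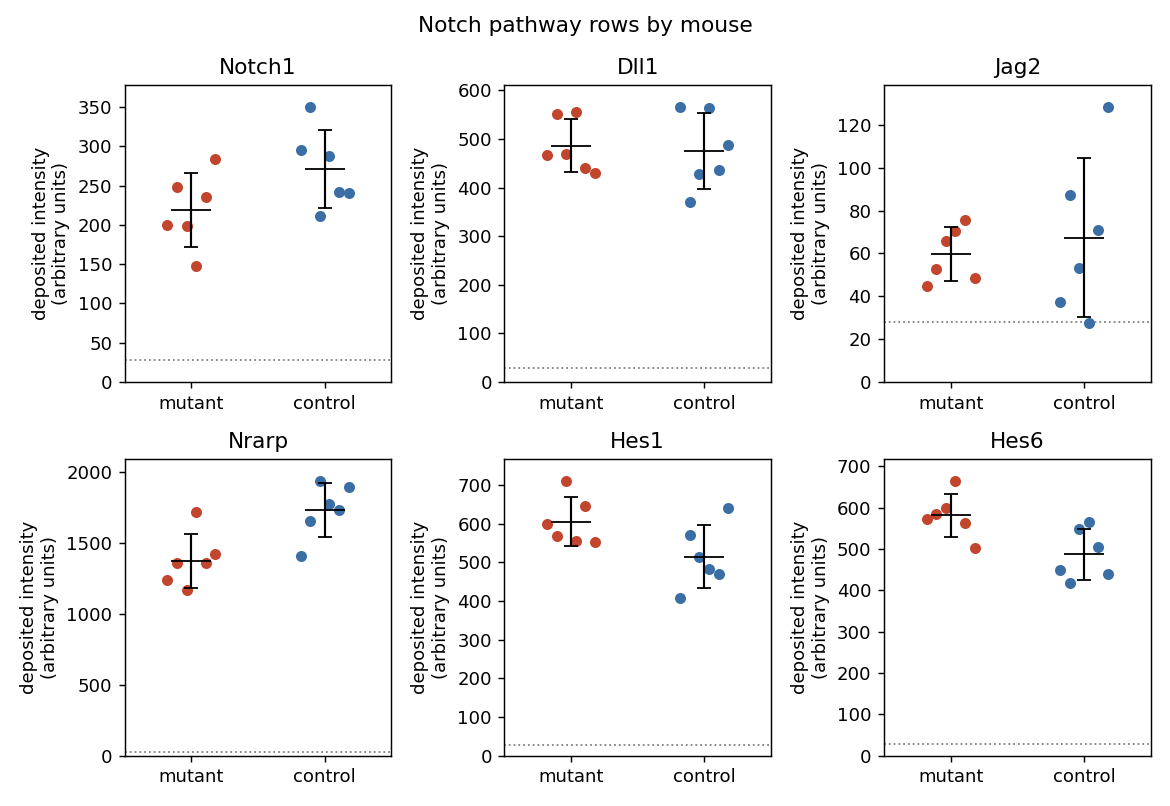
Deposited intensity (arbitrary units, axis from 0) of 6 Notch rows in each mouse, mutants left and controls right, with mean and SD over 6 mice and the noise limit of 27.8 as a dotted line. Nrarp averaged 1375 in mutants and 1734 in controls, while the Hes1 and Hes6 rows averaged 604.6 and 581.6 in mutants and 514.0 and 487.8 in controls.

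Nrarp is a small ankyrin-repeat protein that Notch signalling induces and that in turn binds the receptor's intracellular part and limits its activity. Its intensities were 1238.8, 1356.3, 1165.4, 1714.6, 1356.3 and 1418.7 in mutants 1 to 6, against 1408.2, 1655.1, 1938.8, 1774.4, 1733.6 and 1895.1 in controls 1 to 6. All 6 mutants lay below the control mean and 4 of them below every control. The overlap came from mutant 4, the highest mutant, and from control 1, the lowest control. The means were 1375 ± 190 in mutants and 1734 ± 191 in controls, a log2 difference of -0.32 (SE 0.09, 95% interval -0.52 to -0.13, limma adjusted p = 0.0368), or 0.80-fold. Among the 811 rows called lower, 610 had a larger change in log2 terms, so the fall of Nrarp was smaller than most.

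The Nrarp call depended on the set of mice. With mice left out 1 at a time, 9 of 12 fits lost it, at adjusted p of 0.058 to 0.0848, those without any of mutants 1, 2, 3, 5 and 6 or of controls 3 to 6, and the log2 difference ranged from -0.38 to -0.28 over all 12 such fits. Control 4 and mutant 1 had the most pancreatic acinar transcripts. Their summed marker intensities were 72653.0 in control 4 and 42221.4 in mutant 1, against at most 10566.0 in any other mouse. Control 5 and mutant 2 carried smaller amounts, with the acinar marker Cpb1 at 791.9 and 411.5 against at most 27.8 in the remaining mice. Without control 4 and mutant 1, but with control 5 and mutant 2 kept, Nrarp differed by -0.29 (adjusted p = 0.119). The groups held the same numbers of each sex by Xist and Y-linked rows, 4 males and 2 females, and the Nrarp means of males were 1295 in mutants and 1694 in controls (n = 4 each), and those of females 1535 and 1814 (n = 2 each).

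**Figure D2:**
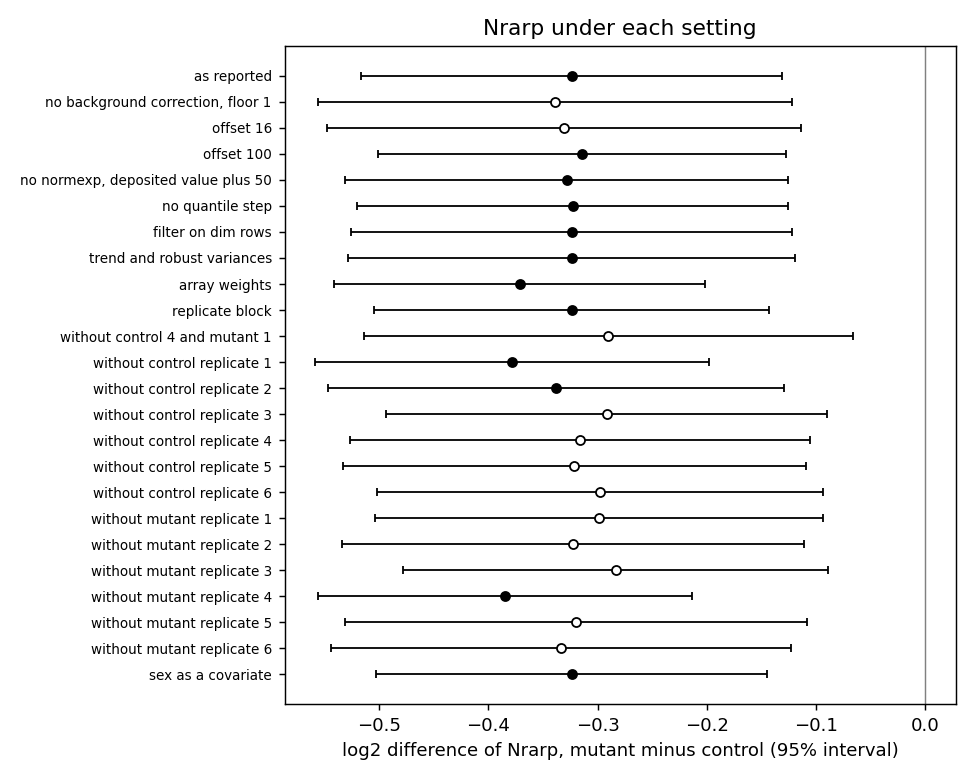
Log2 difference of Nrarp, mutant minus control, with its 95% interval, as reported (top) and under each other setting. Filled points passed an adjusted p of 0.05 and open points did not. Every interval lies below 0, and the estimates run from -0.38 without mutant 4 to -0.28 without mutant 3.

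Some markers of other cell types differed between the same groups. The counts of called rows below stand against 4.48% of all rows called lower and 4.71% called higher. In lists this short, a count of 1 or 2 is not read as a change in a cell type. Of 13 endothelial rows, 4 were called lower and none higher (Tek and Robo4, receptors of vessel cells, Emcn, a vessel sialomucin, and Egfl7, a secreted vessel protein), with a median log2 difference of -0.24. The summed endothelial intensity was 6790.7 to 8189.9 in mutants and 7500.6 to 10455.8 in controls, with Kdr within the noise limit in all 12 mice. Of 6 neutrophil rows 4 were higher in mutants (S100a8, S100a9, Ltf and Retnlg). Ngp missed the threshold (limma adjusted p = 0.298), and Csf3r was within the noise limit throughout. The 6 rows summed to 3062.9 to 10995.4 in mutants and 307.4 to 424.6 in controls. The mutant sums rested mostly on S100a8, at 2237.0 to 7985.4 in mutants against 70.6 to 172.7 in controls. Whether these rows reflect the number of neutrophils was not tested. Of 5 erythroid rows 3 were lower, with sums of 10683.9 to 20179.3 in mutants and 20630.2 to 32174.2 in controls. Of 6 leukocyte rows 2 were lower (Emr1 and Csf1r), with sums of 665.7 to 1195.7 in mutants and 1165.8 to 1723.6 in controls and Ptprc and Itgam within the noise limit throughout. Epithelial rows summed to 51215.6 to 58705.8 in mutants and 49500.5 to 55428.0 in controls, with 2 of 11 higher (Krt19 and Cdx1). The epithelial rows Fabp1 and Fabp2, of enterocyte fatty acid binding proteins, were within the noise limit in all mice. Of the remaining lists, 1 of 6 fibroblast rows (Lum) and 1 of 7 smooth muscle rows (Cnn1) were higher, and 1 of 5 neuron and glia rows (S100b) was lower. Their sums were 12113.5 to 19975.2, 33959.9 to 47577.7 and 239.8 to 355.2 in mutants, and 12788.2 to 13725.5, 25429.6 to 39435.4 and 224.0 to 311.9 in controls. The part of any of these in the Nrarp result was not tested. Ptpn11 itself read 1498 ± 118 in mutants and 1288 ± 124 in controls (limma adjusted p = 0.0763), and since no source used here places its probe relative to the floxed exon, the row says nothing of the deletion. Villin (Vil1), the source of the Cre promoter, averaged 8714 ± 990 in mutants and 9101 ± 1121 in controls (adjusted p = 0.801).

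The bases before the start of the Nrarp gene are shown because it is the member that passed the threshold, and those of Lfng because they alone held the RBPJ core among the windows matched to these genes. Sequences come from RefSeq (GRCm38.p6), which gave 11 windows for 9 of the 10 genes, with none for Hes1. Each window of 300 bases was searched on both strands for the RBPJ core TGGGAA and the palindromic E-box CACGTG, a sequence bound by many basic helix-loop-helix proteins. The 250 bases before each start are printed 5′ to 3′, with matches in capitals, for Nrarp at chr2:25180508-25180757 (plus strand) and Lfng at chr5:140607091-140607340 (plus strand).
Nrarp: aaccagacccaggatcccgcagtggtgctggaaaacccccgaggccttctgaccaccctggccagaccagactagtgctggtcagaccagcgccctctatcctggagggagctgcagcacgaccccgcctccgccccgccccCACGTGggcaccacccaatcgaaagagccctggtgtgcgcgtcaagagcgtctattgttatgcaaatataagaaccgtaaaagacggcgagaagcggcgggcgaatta
Lfng: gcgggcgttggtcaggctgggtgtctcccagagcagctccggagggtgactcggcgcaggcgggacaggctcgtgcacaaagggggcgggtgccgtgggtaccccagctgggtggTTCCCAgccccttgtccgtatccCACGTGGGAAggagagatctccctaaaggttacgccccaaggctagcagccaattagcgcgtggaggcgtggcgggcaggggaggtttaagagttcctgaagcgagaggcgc
The Nrarp window held the E-box, its first base 108 bases before the start, and no RBPJ core. The Lfng window held the RBPJ core in both orientations, from 135 and 108 bases before the start, and the second of these shared 2 bases with an E-box. The RBPJ core was in 1 of the 11 windows, against 25.6% of all 32851 windows in the table, and the E-box in 2 of 11, against 7.15%. These are matches of letters within the windows and say nothing of binding.

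Hes1 is the transcriptional repressor through which Notch holds down Atoh1 in the intestinal crypt. Its row read 599.9, 567.2, 710.7, 553.8, 644.6 and 551.6 in mutants 1 to 6, against 408.6, 569.8, 514.1, 482.3, 470.0 and 639.5 in controls 1 to 6. All 6 mutants were above the control mean, but control 6 exceeded 4 of them and only 2 mutants were above every control. The means were 604.6 ± 62.7 in mutants and 514.0 ± 81.1 in controls, a log2 difference of 0.22 (SE 0.09, 95% interval 0.03 to 0.41) that missed the threshold (limma adjusted p = 0.162). The interval corresponds to folds of 1.02 to 1.33.

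Hes6 is a related protein that in the mouse opposes Hes1 rather than acting as a repressor alongside it, and it is counted here with the Hes family and not as a readout of Notch activity. It read 573.8, 585.3, 598.3, 665.6, 562.9 and 503.7 in mutants 1 to 6, against 448.3, 417.3, 549.6, 564.9, 506.2 and 440.6 in controls 1 to 6. Every mutant was above the control mean, and 4 of 6 were above every control. The log2 difference was 0.23 (SE 0.08, 95% interval 0.06 to 0.40, folds of 1.04 to 1.32) and missed the threshold (limma adjusted p = 0.0942). With mice left out 1 at a time, Hes6 passed in 1 fit, that without control 4, the highest control (0.27, adjusted p = 0.0497). The other 11 fits missed the threshold, at adjusted p up to 0.182.

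The Nrarp mean was lower in mutants and the Hes1 and Hes6 means were higher, but whether the rows responded differently was not tested, since any such pair would have been chosen for these values.

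Notch1 is the receptor that, with Notch2, carries the signal in intestinal progenitors, and it also works in vessels and lymphocytes. Its row read 199.9, 248.3, 198.2, 147.1, 236.1 and 283.4 in mutants 1 to 6, against 294.8, 350.3, 211.9, 288.3, 241.7 and 240.3 in controls 1 to 6. The lowest 3 values were those of mutants 1, 3 and 4, and 5 of 6 mutants were below the control mean, but mutant 6 was above 3 controls. The means were 218.8 ± 47.5 in mutants and 271.2 ± 49.9 in controls, a log2 difference of -0.25 (SE 0.12, 95% interval -0.50 to -0.004) that missed the threshold (limma adjusted p = 0.221). The Notch2 row was within the noise limit in every mouse, at -10.4 to 2.3 in mutants and -7.1 to 3.6 in controls, so these arrays do not measure the other epithelial receptor.

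In the adult crypt, Dll1 and Dll4 are the Delta ligands that secretory progenitors and Paneth cells present to stem cells. The mice here were labelled P6, and which cells gave the signal of these rows was not tested. Dll1 read 467.5, 550.3, 469.8, 555.6, 441.0 and 430.6 in mutants 1 to 6, against 565.8, 370.0, 427.7, 564.1, 435.8 and 487.8 in controls 1 to 6. All mutants lay inside the range of the controls. The log2 difference was 0.03 (SE 0.10, limma adjusted p = 0.904), and its 95% interval of -0.17 to 0.24 leaves room for folds from 0.89 to 1.18. The Dll4 row was at 13.2 to 41.0 in mutants and 14.4 to 35.5 in controls, above the noise limit in mutants by 1 mouse (mutant 3) and in controls by 2 mice. Its groups overlapped and no fold is given.

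The Jagged ligands are also made outside the epithelium, in vessel walls and stroma. Jag2 read 44.6, 52.6, 65.8, 70.3, 75.7 and 48.7 in mutants 1 to 6, against 37.1, 87.3, 53.3, 27.4, 71.0 and 128.4 in controls 1 to 6. The controls spread more widely and enclosed all mutants (SD 12.7 in mutants and 37.0 in controls). The log2 difference was -0.04 (SE 0.14, 95% interval -0.35 to 0.27, limma adjusted p = 0.921). Jag1 was close to the noise limit, at 5.4 to 31.1 in mutants and 14.2 to 33.8 in controls, with 1 mutant and 2 controls above it, and it missed the threshold (adjusted p = 0.227).

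Lfng adds a sugar to the O-fucose on the receptor's EGF repeats, which favours Delta over Jagged ligands. Its row was within the noise limit in all 12 mice, at 4.1 to 26.6 in mutants and 3.1 to 24.2 in controls, so no level or fold is given.

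**Figure D3:**
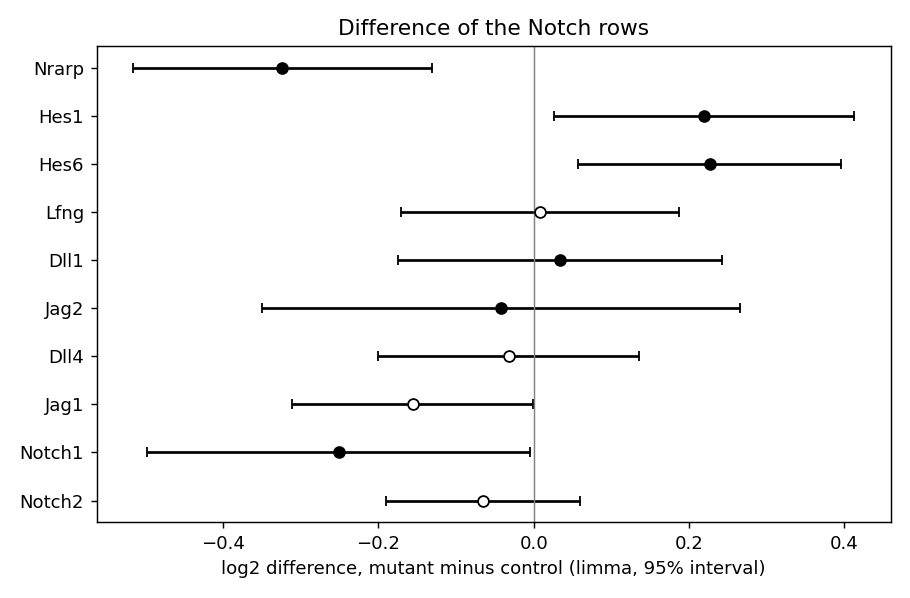
Log2 difference, mutant minus control, of the 10 Notch rows with 95% intervals from limma, with filled points for rows above the noise limit in at least 11 mice and open points for the dimmer rows, whose differences the offset shrinks. The interval of Nrarp is -0.52 to -0.13 and that of Dll1 -0.17 to 0.24.

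A wider list of 57 Notch pathway symbols had 45 rows, of which 31 were above the noise limit in all 12 mice and 7 in none. In it 5 rows passed the threshold, against 9.19% of all rows. Of these, 4 were lower and 1 was higher, against 4.48% and 4.71% of all rows, and the median log2 difference was -0.05. A share of 5 in 45 is close to the 9.19% of all rows. With only rows above the noise limit in at least 6 mice kept, 5 of 34 listed rows were called, against 1779 of 9930. The rows below are described singly and not as a change of the pathway. Pofut1, the enzyme that puts O-fucose on Notch receptors, fell to 209.8 ± 20.4 in mutants, against 320.3 ± 33.7 in controls, with every mutant (173.5 to 229.3) below every control (279.0 to 357.2). Its log2 difference was -0.48 (SE 0.07, limma adjusted p = 0.000772). It passed under all alternative settings, as did the rows Aph1b and Dtx4.

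Dtx4, a Deltex-family ubiquitin ligase, was the 1 row that rose, to 383.2 ± 51.9 in mutants, against 258.6 ± 40.5 in controls, again with no overlap (log2 difference 0.46, SE 0.09, limma adjusted p = 0.00732). Mib2, a ubiquitin ligase that drives uptake of ligands, fell to 1272 ± 110 in mutants, against 1600 ± 184 in controls (log2 difference -0.31, SE 0.08, adjusted p = 0.0222). The Mib2 call ended without control 5, mutant 1 or mutant 5, and without control 4 and mutant 1 together.

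Aph1b and Aph1c are copies of a gamma-secretase subunit, the complex that releases the intracellular part of Notch. The Aph1b row fell to 157.3 ± 24.6 in mutants, against 241.6 ± 41.5 in controls, without overlap (log2 difference -0.45, SE 0.09, limma adjusted p = 0.00709). The Aph1c row was called lower too (adjusted p = 0.0207), but all mutants (1.1 to 10.8) and 2 controls (9.4 to 56.5 over all controls) were within the noise limit, and its call ended without background correction. The copies are so alike that a probe for 1 may read the other, and the pair may not be 2 separate observations. The other bright subunits, Psenen and Ncstn, read 4744 ± 550 and 1990 ± 186 in mutants and 4547 ± 450 and 1868 ± 266 in controls and missed the threshold (adjusted p = 0.822 and 0.659).

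**Figure D4:**
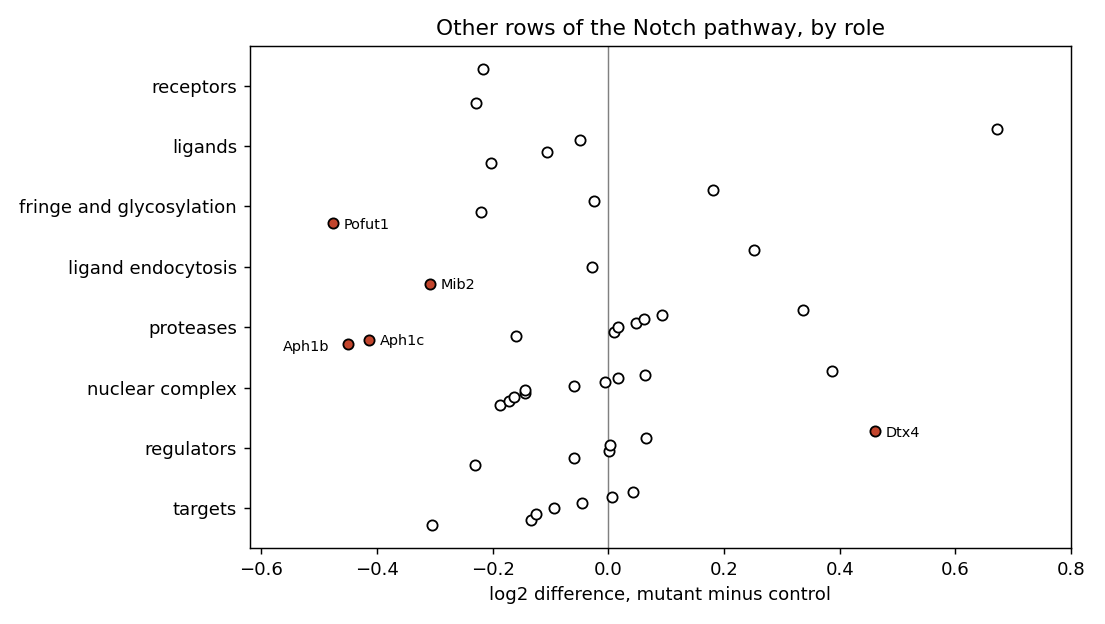
Log2 difference, mutant minus control, of 45 other Notch pathway rows by role, with the 5 rows past the threshold filled and named. Dtx4 lies at 0.46, and Pofut1, Aph1b, Aph1c and Mib2 lie between -0.48 and -0.31.

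No row of the remaining receptors, ligands, nuclear complex or targets passed. Notch3, a receptor of vessel-wall cells, and Notch4, a receptor of endothelium, read 426.0 ± 96.7 and 333.4 ± 70.4 in mutants and 517.0 ± 138.4 and 401.7 ± 86.7 in controls (limma adjusted p = 0.486 and 0.418). Dlk1, a Delta-like protein outside the canonical ligands, had the widest difference of the wider list, 687.4 ± 310.2 in mutants and 397.8 ± 138.9 in controls (log2 difference 0.67, SE 0.26), and missed the threshold (adjusted p = 0.131). Dner, another such protein, read 136.4 ± 28.1 in mutants and 166.7 ± 20.4 in controls (adjusted p = 0.176).

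Hey1, a Notch target of the same class as Hes1 that is prominent in vessels, averaged 573.1 ± 123.7 in mutants and 720.5 ± 105.2 in controls. Its log2 difference of -0.30 (SE 0.12, 95% interval -0.57 to -0.04) was near that of Nrarp and missed the threshold (limma adjusted p = 0.154). The summed endothelial markers given above differed in the same direction, and their part in the Hey1 values was not tested. Hey2 read 41.9 ± 12.1 in mutants and 52.2 ± 11.7 in controls (adjusted p = 0.397), and Hes2, Hes3, Hes5 and Hes7 were within the noise limit in all mice.

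In the nuclear complex, the Rbpj row itself was within the noise limit in every mouse. The co-repressor Hdac2 and the co-activator Ep300 read 2344 ± 153 and 1345 ± 82 in mutants and 2245 ± 273 and 1531 ± 256 in controls (limma adjusted p = 0.732 and 0.364). Among the remaining brightest rows of each role, Ktelc1 (today's Poglut1, a glucosyltransferase of Notch), the ubiquitin ligase Neurl and Dtx2 missed the threshold (adjusted p = 0.926, 0.352 and 0.634). The Atoh1 row, the gene that Hes1 represses, was within the noise limit in all 12 mice, and of the 4 secretory progenitor rows none passed. The others, Spdef, Neurog3 and Gfi1, had higher means in mutants (limma adjusted p = 0.0733, 0.127 and 0.548). The 4 rows summed to 266.1 to 418.5 in mutants and 189.9 to 287.1 in controls, with the negative Atoh1 values counted as 0. The log2 differences of Spdef, Neurog3 and Gfi1 were 0.34, 0.29 and 0.08. Their median with the Atoh1 row included was 0.19.

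Rows that varied most like each bright Notch row from mouse to mouse were found by Pearson's r over 12 mice after each group's mean was subtracted, among 9945 rows whose mean exceeded the noise limit. They are given as a description with no test, since the highest of so many values over 12 mice on the same arrays is high by selection. For Nrarp they were E030010A14Rik, 1700021K19Rik and Furin, a protease that trims precursor proteins, with r of 0.89 for each. For Hes1 they were Polm, 1200009O22Rik and Dgcr2 (r of 0.91 to 0.93), and for Hes6 Moap1, Tubd1 and EG622339 (0.91 to 0.95). For Dll1 they were Ly75, Mrpl53 and Nudt12 (0.87 to 0.89), and for Notch1 Bbs9, 5830467P10Rik and Mycbp (0.85 to 0.88). No other Notch row, of the 10 or of the wider list, was among these. With only 3 of 9945 rows kept for each, this does not show whether Notch rows vary together.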

How the data were processed

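Per the labels' protocols, total RNA was extracted with Trizol and labelled with the Ambion Illumina TotalPrep kit. GenomeStudio and Partek are named in the submitters' processing notes, without version or role. The deposited values were linear intensities, 1 per symbol and mouse. Their values showed background subtraction (22.5% below 0) and normalisation (medians of 41.8 to 43.4). The array version and the way probes were summarised are not given in the sources used here. Another table, whose 24 value columns matched no sample label, was not used.

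From the deposited values, normexp (offset 50) and quantile normalisation were applied, and the result was put on the log2 scale and fitted with limma 3.58.1 (lmFit and eBayes, group only) in R 4.3.3. The fit was also run on simulated data with independent rows. Its recovery of changes as small as those of the Notch rows is not reported here. The number of arrays limits the precision.

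The Notch genes and all lists were chosen with earlier results of these data known. The rule for named genes took all 10 Notch rows, rows of the wider list past the threshold and its 2 brightest rows per role, Ptpn11 and Vil1, and for each Notch row above the noise limit in all mice the 3 rows most like it. Arrays correlated at 0.983 to 0.994 within groups and 0.973 to 0.987 between them. Mice were grouped by title, and the descriptions call them biological replicates.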

Additional observations from a re-analysis of the deposited data

How the results depend on the processing

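Nrarp was called under 8 of the 11 settings other than those leaving out 1 mouse, and the direction of its difference held under all 23 alternatives, from -0.38 to -0.28. The number of Notch rows called was 0 without background correction (Nrarp -0.34, adjusted p = 0.0678), 0 with an offset of 16 (-0.33, 0.0587) and 0 without control 4 and mutant 1 (-0.29, 0.119). It was 0 to 1 when 1 mouse was left out. Deviations of same-numbered mutants and controls from their group means correlated at -0.10 to 0.23. Differently numbered mice were not compared in this way, so whether the numbers pair the mice is not known. With the replicate number as a block, 2 Notch rows were called, Nrarp (adjusted p = 0.0372) and Hes6 (0.0465), and 1702 rows in all, against 1663 without it. When 1 mouse was left out, differences that had missed the threshold changed sign, with ranges of -0.0278 to 0.0815 for Dll1, -0.131 to 0.072 for Jag2 and -0.0327 to 0.0436 for Lfng. The cause of these changes was not tested. Sex as a covariate, chosen after seeing the data, left 1 Notch row called (Nrarp, 0.0267). All rows called ranged from 1218 to 1862 and rows of the wider list from 4 to 7, the added ones being Gcn5l2, Mfng or Dtx1. Rows within the noise limit carry no information on change, which holds for Notch2 and Lfng in all mice.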
